A study of Homo sapiens with 12 samples.

Results

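Tubulin mRNAs were examined in cultured endometrial cells exposed to AG-205. The 10 genes, 4 of alpha tubulin (TUBA1A, TUBA1B, TUBA1C and TUBA4A) and 6 of beta tubulin (TUBB, TUBB2A, TUBB2B, TUBB3, TUBB4B and TUBB6), were chosen by name, and all 10 were found among the 58735 genes of the count table. RNA was sequenced from 12 libraries in 4 groups of 3. HEC-1A (HEC1A in the labels), an epithelial-like line from an endometrial adenocarcinoma, was kept with AG-205 at 15 µM (3 libraries) or with its solvent DMSO (3 libraries), in both cases over 32 h. T-HESC (THESC in the labels), an endometrial stromal line immortalised with telomerase, was cultured in the same 2 ways (3 libraries each). AG-205 is a small molecule sold as an inhibitor of PGRMC1, a membrane-associated progesterone receptor component. The paper that reported these data concludes that it is not specific for PGRMC1. There, the rise of selected sterol genes with AG-205 persisted when PGRMC1 or all related proteins were knocked down. All cells were cultured in medium with serum, each cell type was represented by a single line, and no library came from cells without DMSO or AG-205.

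Alpha and beta tubulin pair into the dimers from which microtubules are built, the hollow filaments that form the mitotic spindle, the core of cilia and the tracks of intracellular transport. Human cells hold several genes for each subunit, whose proteins are nearly alike and whose use differs between tissues: TUBA1A, TUBB2A, TUBB2B and TUBB3 are best known from neurons, whereas TUBA1B, TUBA1C, TUBB, TUBB4B and TUBB6 are used in many dividing cells. Tubulin mRNAs are also known for a form of control called autoregulation: when free dimers accumulate, the first residues of a tubulin chain that is being translated are recognised by TTC5, which with SCAPER recruits the CCR4-NOT deadenylase through CNOT11, and the mRNA is degraded.

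The start of the coding sequence is shown for each gene because it encodes the residues that TTC5 reads. These are the first 30 bases, 5′ to 3′, of the reference transcript of each gene (MANE Select, GENCODE 44, GRCh38), with the first 4 codons in capitals.
TUBA1A: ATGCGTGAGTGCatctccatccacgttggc
TUBA1B: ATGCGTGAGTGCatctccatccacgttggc
TUBA1C: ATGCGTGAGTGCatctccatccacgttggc
TUBA4A: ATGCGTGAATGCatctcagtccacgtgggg
TUBB: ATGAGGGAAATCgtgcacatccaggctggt
TUBB2A: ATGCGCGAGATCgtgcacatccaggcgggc
TUBB2B: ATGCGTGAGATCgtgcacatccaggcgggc
TUBB3: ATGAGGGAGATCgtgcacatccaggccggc
TUBB4B: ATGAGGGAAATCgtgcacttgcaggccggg
TUBB6: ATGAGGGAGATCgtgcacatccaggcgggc

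In all 4 alpha genes the capitals encode methionine, arginine, glutamate and cysteine, and in all 6 beta genes they encode methionine, arginine, glutamate and isoleucine. Of 19028 protein-coding genes searched, 9 (0.0473%) begin with the first set of residues and 10 (0.0526%) with the second, and all of these are tubulin genes. The 3 TUBA1 genes are identical over the 30 bases shown. Each of the 10 genes thus carries the recognised start, so its presence does not separate the genes from each other.

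The genes lie on 6 chromosomes (GRCh38). TUBA1B (chr12:49127782-49131397, minus strand), TUBA1A (chr12:49184686-49189080, minus strand) and TUBA1C (chr12:49188736-49274600, plus strand) form a cluster in which the starts of TUBA1A and TUBA1C overlap. TUBA4A lies alone at chr2:219249710-219277902 on the minus strand. TUBB2A (chr6:3153497-3157544) and TUBB2B (chr6:3223324-3231730), both on the minus strand, are 65.8 kb apart, and TUBB (chr6:30717435-30725538, plus strand) lies elsewhere on the same chromosome. TUBB3 (chr16:89921392-89938761), TUBB4B (chr9:137241287-137243707) and TUBB6 (chr18:12307669-12344320) are single genes on the plus strand. Because the copies are alike, the share of 150-base stretches of each reference transcript that also occurs unchanged in a transcript of another gene was computed. It was 48.7% for TUBB2A and 41.6% for TUBB2B, which share them mostly with each other, and 19.1% for TUBA1B. It was 8.01% for TUBA1A, 7.22% for TUBA1C and 2.66% for TUBB. No such stretch was found for TUBA4A, TUBB4B or TUBB6. TUBB3 shared 92.3% of its stretches, mainly with an overlapping readthrough gene (ENSG00000198211) that had 0 counts in every library, so its level may be understated and is uncertain. Counts of TUBB2A and TUBB2B are likewise uncertain as a split between the pair.

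The libraries held 7168542 to 15178276 gene counts, and the 10 genes made up 0.285 to 0.591% of them. The labelled origins were checked with 10 epithelial and 10 stromal marker genes. Levels are given in CPM (normalised counts, scaled to the library size with the trimmed mean of M-values, TMM). The epithelial markers summed to 1618.9 to 1785.4 CPM in HEC-1A under DMSO and to 2409.2 to 2452.0 CPM with AG-205. In T-HESC they summed to 222 to 388 CPM, and CDH1, ESRP1 and GRHL2 had at most 3 counts. Under DMSO, 9 of the 10 were lower in T-HESC and 1 was not (log2 fold change 0.07). The stromal markers summed to 8.59 to 14 CPM in HEC-1A and to 6140.5 to 24545.2 CPM in T-HESC. T-HESC AG-205 replicate 1 stood apart from the other libraries of its group (chi-square per degree of freedom 160 and 207, against 64.5 between the other pair). HEC-1A AG-205 replicate 3, the smallest library, also stood apart from its group (15.4 and 14.2, against 4.19 between the other pair). So did T-HESC DMSO replicate 3 (47.3 and 40.8, against 11.2). Only some of the tubulin values and counts of calls below are given both with and without 1 of these AG-205 libraries. The percentages for summed levels and the ratios of counts rest on all libraries.

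Under DMSO, the summed level of the tubulin genes studied averaged 3324.5 CPM in HEC-1A and 6212.7 CPM in T-HESC, a difference that was not tested. Among the single genes tested, TUBA1A and TUBA4A, both of alpha tubulin, differed most between the lines. TUBA1A was almost unused in HEC-1A, at 5.25, 3.1 and 3.5 CPM in the 3 libraries, and stood at 653, 617 and 499 CPM in T-HESC. TUBA4A showed the reverse, with 76.5, 66.8 and 67.2 CPM in HEC-1A and 1.8, 1.32 and 2.69 CPM in T-HESC. In neither gene did the lines overlap. TUBA1A was 148-fold higher in T-HESC (log2 fold change 7.21, SE 0.219, adjusted p = 2.05e-08, from the quasi-likelihood test of edgeR, with p-values adjusted over all genes tested by the Benjamini-Hochberg method), and TUBA4A was at 0.0271 times its HEC-1A level (log2 fold change -5.21, SE 0.207, adjusted p = 8.36e-08). This adjusted p under 0.05 is the call used throughout.

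Among the 4 beta genes tested between the lines, TUBB6 and TUBB2A had the largest differences, both higher in T-HESC. TUBB6 was measured at 234, 212 and 217 CPM in HEC-1A and at 950, 1008.7 and 1082.8 CPM in T-HESC, a 4.55-fold difference (log2 2.19, SE 0.0964). TUBB2A went from 8.79, 8.19 and 9.32 CPM to 48.3, 44.9 and 59.1 CPM, a 5.74-fold difference (log2 2.52, SE 0.143). TUBB was 1.7-fold and TUBA1C 2-fold higher in T-HESC, again without overlap. TUBA1B (log2 0.35, adjusted p = 0.0421) and TUBB4B (log2 0.30, adjusted p = 0.0407, both edgeR) passed the test narrowly. Their calls were lost without any single one of the HEC-1A DMSO libraries (adjusted p 0.101 to 0.128 and 0.0755 to 0.143), and TUBB4B's also without T-HESC DMSO replicate 2 (0.0517). With all 12 libraries in 1 fit neither was called (0.351 and 0.106), nor was either with upper-quartile scaling (0.188 and 0.262), TUBA1B was not called with a filter at a mean of 1 CPM (0.0514), and TUBB4B was not called with a replicate block (0.0698). TUBB3, which in mature tissue marks neurons, had 0, 1 and 1 counts in HEC-1A under DMSO and 18, 7 and 11 in T-HESC. Its mean of 1.01 CPM in T-HESC was at least 4.02-fold higher than a floor of 3 counts per library in HEC-1A (0.251 CPM). TUBB2B had 6 to 8 counts per library in HEC-1A and 5, 27 and 10 in T-HESC, so the groups overlapped. In all, 8 of the 10 genes had enough counts to be tested between the lines and all 8 were called, 7 higher and 1 lower in T-HESC. The lines differed widely in general: 72.1% of the 14789 genes tested were called in either direction and 36.1% were called higher in T-HESC. With a log2 fold change beyond 1 also required, TUBA1A, TUBA4A, TUBB2A and TUBB6 remained, against 44.6% of all genes, and TUBA1C lay at the limit.

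**Figure D1:**
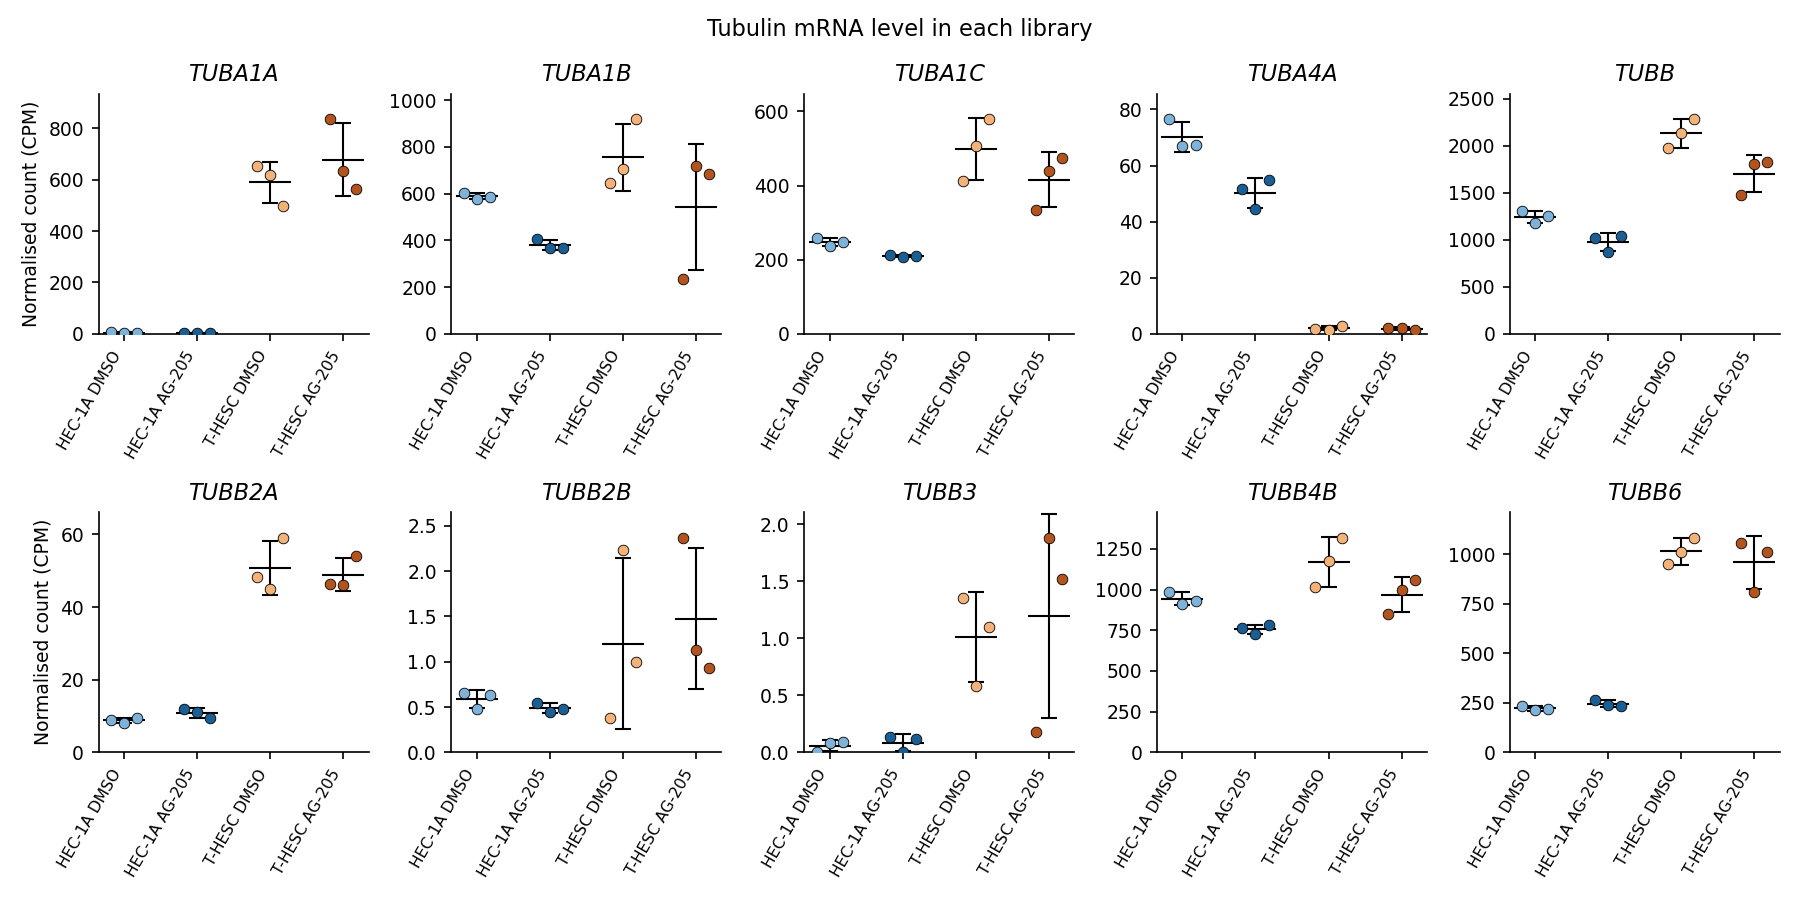
Normalised count (CPM, linear axes from 0, a separate scale for each gene) of the 10 tubulin genes in the 12 libraries. Each point is 1 library, the horizontal bar is the group mean and the error bar is 1 SD (n = 3). TUBA1A is seen almost only in T-HESC and TUBA4A almost only in HEC-1A. All 3 HEC-1A AG-205 points of TUBA1B, TUBA4A, TUBB and TUBB4B lie below all 3 DMSO points. Those of TUBA1C do too, although its difference missed the threshold.

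To compare genes with each other, CPM was divided by the exon length of each gene in kilobases. In HEC-1A under DMSO the order was TUBB4B (463 CPM per kb), TUBB (305), TUBA1B (165), TUBB6 (56), TUBA1C (55.7), TUBA4A (19), TUBB2A (3.02), TUBA1A (1.03), TUBB2B (0.141) and TUBB3 (0.0076). Only TUBB6 and TUBA1C, neighbours in that order, overlapped. In T-HESC under DMSO it was TUBB4B (574 CPM per kb), TUBB (523), TUBB6 (257), TUBA1B (212), TUBA1A (154), TUBA1C (112), TUBB2A (17.5), TUBA4A (0.525), TUBB2B (0.289) and TUBB3 (0.136). There TUBB4B and TUBB overlapped, as did TUBB6 and TUBA1B, and so did each neighbouring pair among the last 3 genes. The first place of TUBB4B depends on the length used. As a share of the beta mRNA per exon length, TUBB4B made up 56% ± 0.37 and TUBB 36.9% ± 0.407 in HEC-1A (SD, n = 3), whereas per coding length TUBB made up 51.5% and TUBB4B 39%. In T-HESC under DMSO, TUBB4B made up 41.7% and TUBB 38.2% per exon length, but TUBB 48.9% and TUBB4B 26.7% per coding length.

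The make-up of the alpha pool set the lines apart. In HEC-1A under DMSO, TUBA1B supplied 68.5% ± 0.728 of the alpha mRNA per length, TUBA1C 23.2% ± 0.311, TUBA4A 7.89% ± 0.377 and TUBA1A 0.428% ± 0.11 (SD, n = 3). In T-HESC under DMSO, TUBA1B supplied 44% ± 4.88, TUBA1A 32.6% ± 6.76, TUBA1C 23.3% ± 2.28 and TUBA4A 0.109% ± 0.0324. In T-HESC the level of TUBA1A per length was thus between those of TUBA1B and TUBA1C. Of the beta mRNA, TUBB6 made up 6.78% ± 0.0835 in HEC-1A and 18.8% ± 0.572 in T-HESC.

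**Figure D2:**
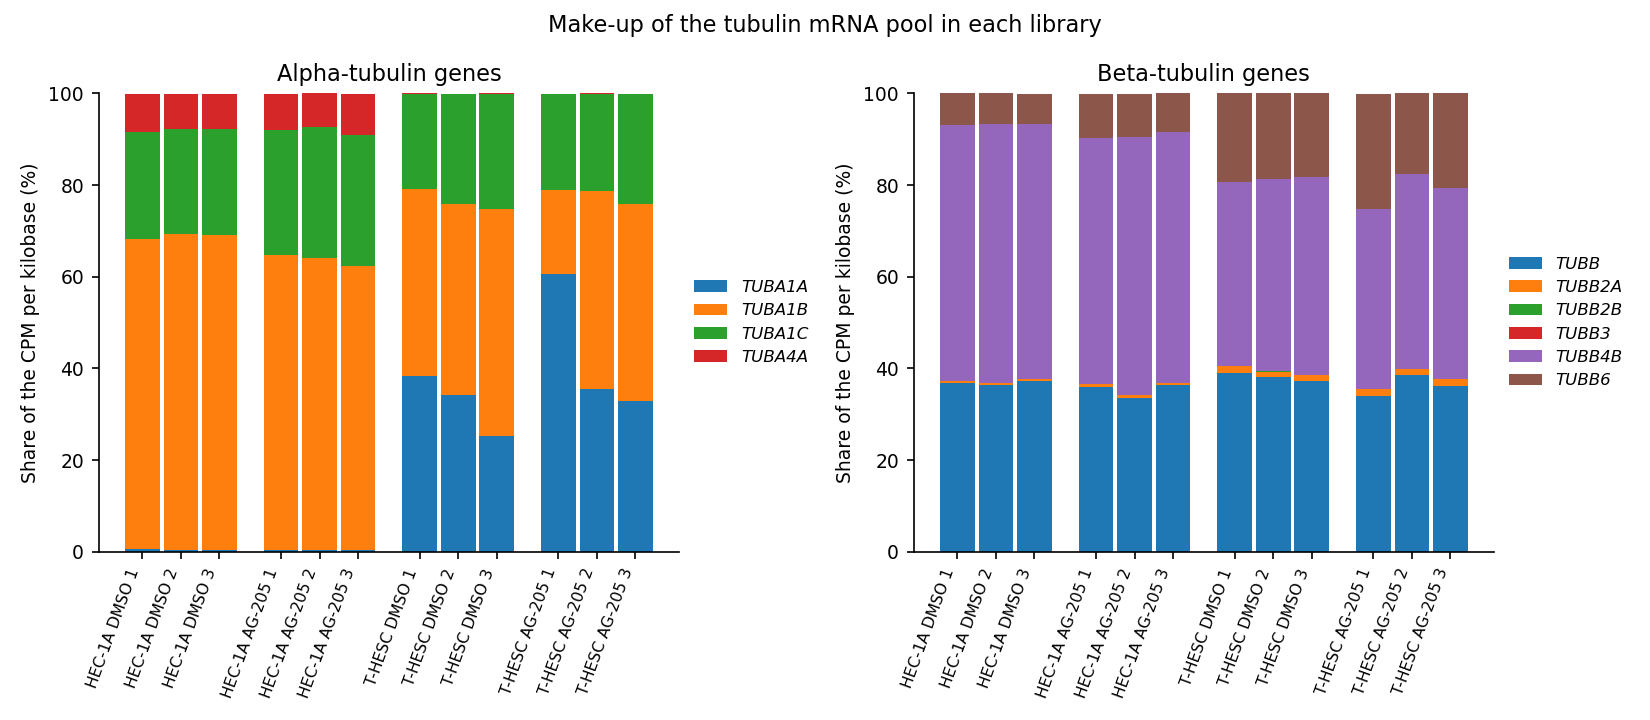
Share (%) of each gene in the summed CPM per kilobase of exon of the 4 alpha genes (left) and the 6 beta genes (right), 1 stacked bar for each of the 12 libraries. TUBA1A takes 25.2 to 60.7% of the alpha bars in T-HESC and under 1% in HEC-1A, and the highest TUBA1A share belongs to T-HESC AG-205 replicate 1.

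The first question of the treatment was whether the tubulin mRNAs of HEC-1A differed with AG-205. TUBA1B, TUBA4A, TUBB and TUBB4B fell by 19.6 to 35.4%, and none of the alpha and beta genes studied rose past the test. Of the 10 genes, 8 had enough counts to be tested. The 4 called, all lower, stand beside 4.28% called lower, 7.35% called higher and 11.6% called in either direction among the 14122 genes tested. The genes were chosen with earlier results of these data known, so the contrast with these shares is a description only. The median log2 fold change of the 8 was -0.33, against 0.01 over all genes tested. None passed the stricter limit that also asks for a log2 fold change beyond 1, which 2.78% of all genes passed. In these bulk libraries, fewer cells of a kind and less RNA in each cell cannot be told apart.

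TUBA1B, the main alpha gene of HEC-1A, showed the clearest difference. It stood at 602, 578 and 586 CPM under DMSO and at 404, 369 and 366 CPM with AG-205. The groups were far apart compared with the spread within each, and the level fell by 35.4% (log2 fold change -0.63, SE 0.089, adjusted p = 0.000714, edgeR). TUBA4A, a gene of the same subunit that lies on another chromosome, measured 76.5, 66.8 and 67.2 CPM under DMSO and 51.6, 44.4 and 54.8 CPM with AG-205, which was 28.5% lower (log2 -0.48, SE 0.107, adjusted p = 0.012, edgeR). TUBA1C was at 259, 238 and 247 CPM under DMSO and at 213, 206 and 211 CPM with AG-205. Its groups did not overlap either, but the difference of -0.24 (log2, SE 0.086) missed the threshold (adjusted p = 0.0981, edgeR). TUBA1A had only 24 to 64 counts per library in this line, its groups overlapped by a narrow margin (3.1 to 5.25 CPM under DMSO, 2.14 to 3.13 CPM with AG-205), and its log2 value of -0.54 had an SE of 0.254 (adjusted p = 0.197, edgeR).

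Of the beta genes, the pair with the highest levels was lower with AG-205. TUBB was measured at 1300.8, 1174.7 and 1248.0 CPM under DMSO and at 1020.9, 867 and 1039.0 CPM with AG-205, 21.3% lower (log2 -0.34, SE 0.103, adjusted p = 0.0492, edgeR). TUBB4B was measured at 987, 909 and 932 CPM under DMSO and at 763, 726 and 781 CPM with AG-205, 19.6% lower (log2 -0.31, SE 0.091, adjusted p = 0.0431, edgeR). Every AG-205 library of both genes lay below every DMSO library, though both adjusted p-values were close to 0.05. TUBB6 had a log2 value of 0.16 (SE 0.0916, adjusted p = 0.308, edgeR), with 234, 212 and 217 CPM under DMSO and 265, 239 and 233 CPM with AG-205, so that the groups overlapped. TUBB2A had a log2 value of 0.31 (SE 0.141, adjusted p = 0.183, edgeR) on 78 to 175 counts per library. Its AG-205 libraries measured 11.9, 11.1 and 9.32 CPM against 8.79, 8.19 and 9.32 CPM, and the groups touched at 9.32 CPM. TUBB2B had 4 to 8 counts in each library of this line and TUBB3 0 to 2, too few to test.

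Over the 8 genes tested, the AG-205 and DMSO libraries of HEC-1A did not overlap for 6, 5 of them lower (TUBA1B, TUBA1C, TUBA4A, TUBB and TUBB4B) and 1 higher (TUBB2A, at the margin just given). That is 75% of the tubulin genes tested, and 31.5% of all genes tested were apart in the same sense. How far each call held depended on the gene. Over 14 other settings and left-out libraries, TUBA1B kept its call in 13, TUBA4A in 10, and TUBB and TUBB4B in 6 each. Without HEC-1A AG-205 replicate 3, the smallest library, 6 tubulin genes were called, TUBA1C (lower) and TUBB2A (higher) being added. The calls among all genes then rose as well, from 1643 of 14122 to 4014 of 14461. Without any 1 of the other 5 libraries, 1 or 2 tubulin genes remained called, TUBA1B always among them. The calls among all genes then fell to between 678 and 1160. The number of tubulin genes called thus moved with the number of all genes called. When all 12 libraries shared 1 estimate of the spread, no tubulin gene was called in HEC-1A (edgeR), while 154 of all genes were, compared with 1643 in the fit of the HEC-1A libraries alone. The direction of each of the 8 genes tested in HEC-1A was the same in all 14.

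**Figure D3:**
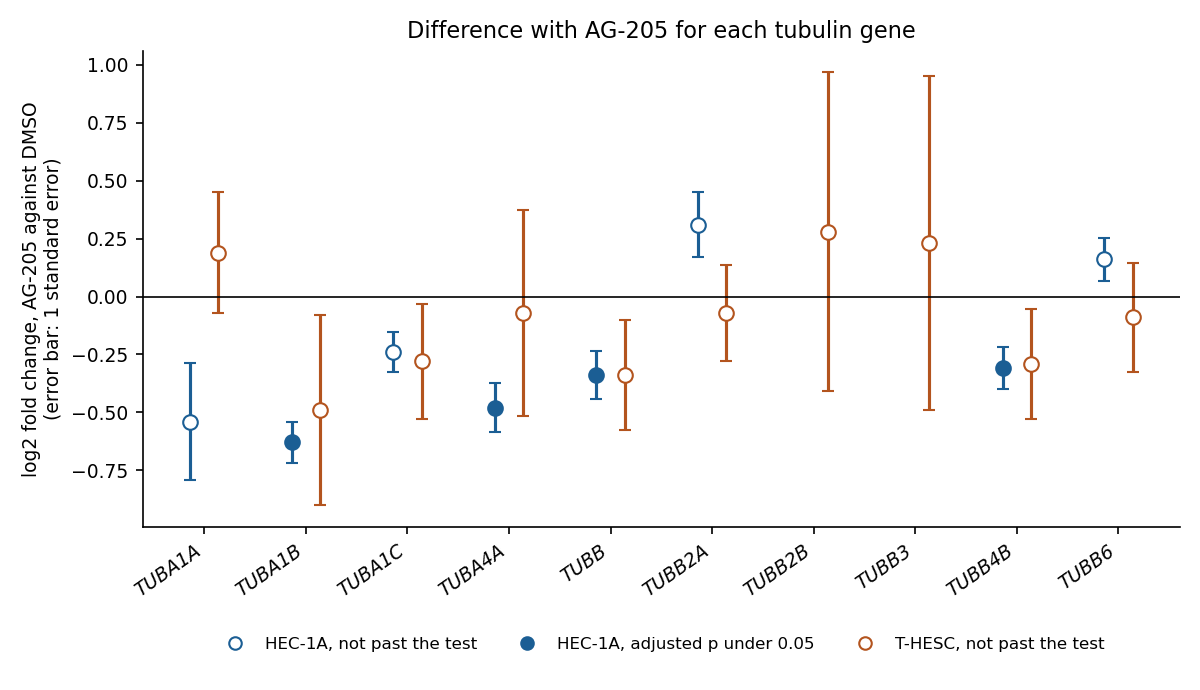
Log2 fold change, AG-205 against DMSO, of each tubulin gene in HEC-1A and T-HESC, with error bars of 1 standard error. Filled points have an adjusted p under 0.05 (edgeR): TUBA1B, TUBA4A, TUBB and TUBB4B in HEC-1A and none in T-HESC, where the bars are longer. TUBB2B and TUBB3 were not tested in HEC-1A.

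Summed over the genes, the alpha mRNA of HEC-1A went from 943, 885 and 904 CPM under DMSO to 672, 622 and 634 CPM with AG-205, 29.4% lower on average. The beta mRNA went from 2530.7, 2304.3 and 2406.8 CPM to 2061.3, 1843.8 and 2062.3 CPM, 17.6% lower. Neither sum overlapped between the groups, and the difference was larger for alpha: the ratio of beta to alpha counts was 2.6 to 2.68 under DMSO and 2.97 to 3.25 with AG-205. Adding the 50 tubulin pseudogenes of the table left both percentages as they were, since these held at most 0.282% as many counts as the 10 genes. The make-up of the pools differed as well. TUBA1B went from 68.5% ± 0.728 to 63.3% ± 1.24 of the alpha mRNA per length, and TUBA1C went from 23.2% ± 0.311 to 28.2% ± 0.786 (SD, n = 3). TUBB6 went from 6.78% ± 0.0835 to 9.22% ± 0.687 of the beta mRNA. Ratios of counts within a library do not depend on the scaling between libraries: TUBB6 to TUBB was 0.174 to 0.181 under DMSO and 0.224 to 0.276 with AG-205, and TUBA1B to TUBA1C was 2.32 to 2.43 and then 1.74 to 1.9. TUBB4B to TUBB overlapped, at 0.747 to 0.774 and 0.747 to 0.838. These ratios were chosen after the values were seen and carry no test.

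The same comparison was made in T-HESC, where the libraries of a group varied more and no tubulin gene was called (0 of 10 tested, edgeR). In this line 11 of 13753 genes (0.08%) were called, and 740 had an unadjusted p under 0.05, none of them a tubulin gene. With DESeq2 141 genes were called, again without a tubulin gene. TUBB was measured at 1976.0, 2130.8 and 2279.7 CPM under DMSO and at 1474.4, 1807.2 and 1827.0 CPM with AG-205, a log2 difference of -0.34 with an SE of 0.237 (adjusted p = 0.993, edgeR). TUBB was the only one of the 10 genes whose groups did not overlap, 10% of them, against 11% of all genes tested. The value of TUBB was that of HEC-1A, -0.34, but its SE was more than 2-fold larger, and without AG-205 replicate 1 it was -0.26 (adjusted p = 0.722, edgeR). TUBB4B was at 1015.8, 1174.1 and 1318.8 CPM under DMSO and at 851, 996 and 1059.2 CPM with AG-205 (log2 -0.29, SE 0.237). TUBA1C had a log2 value of -0.28 (SE 0.248), and its AG-205 range of 334 to 475 CPM overlapped the DMSO range of 411 to 579 CPM. TUBB6 (-0.09), TUBB2A (-0.07) and TUBA4A (-0.07) lay near 0, with SEs of 0.237, 0.208 and 0.445.

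Within the TUBA1 cluster, TUBA1A and TUBA1B varied widely between the T-HESC libraries. TUBA1B stood at 647, 703 and 918 CPM under DMSO and at 234, 716 and 682 CPM with AG-205, the low value being that of replicate 1. TUBA1A stood at 653, 617 and 499 CPM under DMSO and at 835, 634 and 562 CPM with AG-205, where the same replicate was the highest. In that library TUBA1A made up 60.7% and TUBA1B 18.2% of the alpha mRNA per length, while in AG-205 replicates 2 and 3 TUBA1A made up 35.6 and 33%, inside the DMSO range of 25.2 to 38.4%. The log2 difference of TUBA1B was -0.49 (SE 0.411) with all libraries and -0.14 without AG-205 replicate 1. That of TUBA1A was 0.19 (SE 0.262) with all libraries and -0.01 without AG-205 replicate 1. TUBB2B (11 to 26 counts with AG-205, 5 to 27 under DMSO) and TUBB3 (2 to 25 and 7 to 18) were too thinly counted to show a difference of the size seen for the other genes, with SEs of 0.688 and 0.722. Summed, the alpha mRNA of T-HESC overlapped between the groups (1713.3 to 1999.1 CPM under DMSO, 1405.6 to 1791.5 CPM with AG-205), and the beta mRNA did not (3991.5 to 4742.5 and 3431.2 to 3954.3 CPM, 15.7% lower). The median log2 fold change of the 10 genes was -0.08, against 0.02 over all genes tested.

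Whether the AG-205 difference itself differed between the lines was tested as an interaction over all 12 libraries. No tubulin gene was called, and 0.174% of the 16132 genes tested were (edgeR). The interaction values, T-HESC minus HEC-1A, were 0.74 for TUBA1A (SE 0.343, adjusted p = 0.787), 0.44 for TUBA4A (SE 0.366), -0.36 for TUBB2A (SE 0.231), -0.24 for TUBB6 (SE 0.217) and 0.16 for TUBA1B (SE 0.45). The thinly counted TUBB2B and TUBB3 were at 0.54 (SE 0.84) and -0.23 (SE 1.37). TUBB, TUBB4B and TUBA1C were closest to 0, at 0.02 (SE 0.225), 0.05 (SE 0.221) and -0.02 (SE 0.244). The calls made in HEC-1A and missed in T-HESC are therefore not shown to be particular to HEC-1A.

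The other genes of the tubulin and microtubule system were described from lists, which were chosen with earlier results of these data known. Their counts in the main fit are to be read against the 11.6% of all genes called in HEC-1A (4.28% lower, 7.35% higher). Under other settings the number of all genes called differed as well. It was 4014 of 14461 without AG-205 replicate 3, 3718 of 14122 with quality weights and 678 of 14525 without DMSO replicate 3. List counts under a setting are to be read against the calls among all genes in that setting. Most list counts changed with the libraries used: with all 12 libraries in 1 fit none of the genes of the 7 lists on tubulin, microtubules and mitosis was called in HEC-1A. In HEC-1A, the 12 genes of tubulin autoregulation were all tested and none was called (median log2 fold change -0.13), though 3 were called lower without AG-205 replicate 3 and 2 with quality weights. TTC5, which binds the nascent chain, had a log2 value of -0.24 (SE 0.104, adjusted p = 0.173), SCAPER of 0.30 (SE 0.121, adjusted p = 0.131) and CNOT11 of -0.13 (SE 0.0902, adjusted p = 0.398). CNOT9, another subunit of the deadenylase complex, was at -0.24 (SE 0.093, adjusted p = 0.118, all edgeR). The activity of this machinery was not measured.

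New tubulin chains are folded by the chaperonin TRiC and by tubulin cofactors. Of 22 such genes tested in HEC-1A, 2 were called, both lower: CCT5 (log2 -0.38, SE 0.0896, adjusted p = 0.0166) and TCP1 (-0.37, SE 0.107, adjusted p = 0.0441, edgeR), which encode subunits of TRiC. The median of the list was -0.12. The count of 2 was 4 with DESeq2 or with no filter, 1 with upper-quartile scaling, and 9 with quality weights. Leaving out AG-205 replicate 3 made it 11, leaving out AG-205 replicate 1 made it 1, and leaving out any 1 of the other 4 libraries made it 0. Of the other tubulin genes, 8 of 13 were tested and 1 was called higher, TUBG2 (0.40, SE 0.116, adjusted p = 0.0431), a gamma tubulin, while TUBG1, the gamma tubulin of most dividing cells, was at -0.35 (SE 0.107, adjusted p = 0.0554). The number called higher in this list was 0, and the number called lower 1, with DESeq2, with a replicate block and without AG-205 replicate 1. It was also 0 higher without any 1 of the DMSO libraries. None of the 10 genes of the gamma tubulin ring complex, which starts new microtubules, was called, but without AG-205 replicate 3 1 was called higher and 1 lower, and with quality weights 1 higher and 2 lower. TUBGCP3 and CDK5RAP2 of that list were at -0.24 (SE 0.086) and -0.26 (SE 0.0944).

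Of 15 enzymes that modify tubulin and were tested, 2 were called higher and 1 lower. SIRT2, a deacetylase of alpha tubulin, was among the former (0.48, SE 0.0979, adjusted p = 0.00769), and TTLL12 was the one that fell (-0.46, SE 0.0906, adjusted p = 0.00634, edgeR). Of 23 binding proteins tested, 2 were called higher and 1 lower. MAP2, which stabilises microtubules in dendrites, rose (0.63, SE 0.146, adjusted p = 0.0161), and TPX2, a spindle assembly factor, fell (-0.42, SE 0.0903, adjusted p = 0.0106, edgeR). Without AG-205 replicate 3, 6 enzymes and 3 binding proteins were called higher and 1 and 7 lower, and without DMSO replicate 3 none of either list was called. Over the other 4 left-out libraries the enzymes had 1 called higher and 1 lower, and the binding proteins 0 or 1 higher and 0 or 1 lower.

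Genes of mitosis and proliferation were lower beside the tubulin genes in HEC-1A. All 13 listed were tested, 7 were called lower and none higher, and the median log2 fold change was -0.31, close to that of the tubulin genes. CDC20, an activator of the anaphase-promoting complex, was at -0.67 (SE 0.0996, adjusted p = 0.000996), and CCNB1, the mitotic cyclin B1, at -0.42 (SE 0.0981, adjusted p = 0.0164, edgeR). Without AG-205 replicate 3, 12 were called lower, and the number was 4 and 3 when AG-205 replicate 1 or 2 was left out. Without DMSO replicate 1, 2 or 3 it was 1, 2 and 1, and with quality weights it was 11. The summed level of the list ranged from 2755.0 to 2803.7 CPM under DMSO and from 2016.4 to 2208.3 CPM with AG-205. Of 10 epithelial markers, 5 were called higher and none lower in the same libraries, CLDN4 (1.22, SE 0.109), a claudin of tight junctions, and KRT19 (1.09, SE 0.0861), a keratin of simple epithelia, past the stricter limit. The number called higher was 2 in the fit of all 12 libraries and without DMSO replicate 2 or 3. Of 10 stromal markers, 3 were tested in HEC-1A and none was called, COL1A1 being at 0.27 (SE 0.231) and COL6A3 at -0.65 (SE 0.37). The part of these lists in the tubulin result was not tested. In T-HESC no gene of any list was called with AG-205 in the fit of that line alone (edgeR). Under other settings a few markers were: 1 epithelial marker was called higher with DESeq2, in the fit of all 12 libraries and with quality weights, 1 was called lower with no filter, with quality weights and without AG-205 replicate 1, and 1 stromal marker was called lower with quality weights. The summed level of the mitosis list in T-HESC overlapped between the groups, at 2012.3 to 2706.9 CPM under DMSO and 2005.6 to 2649.1 CPM with AG-205.

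**Figure D4:**
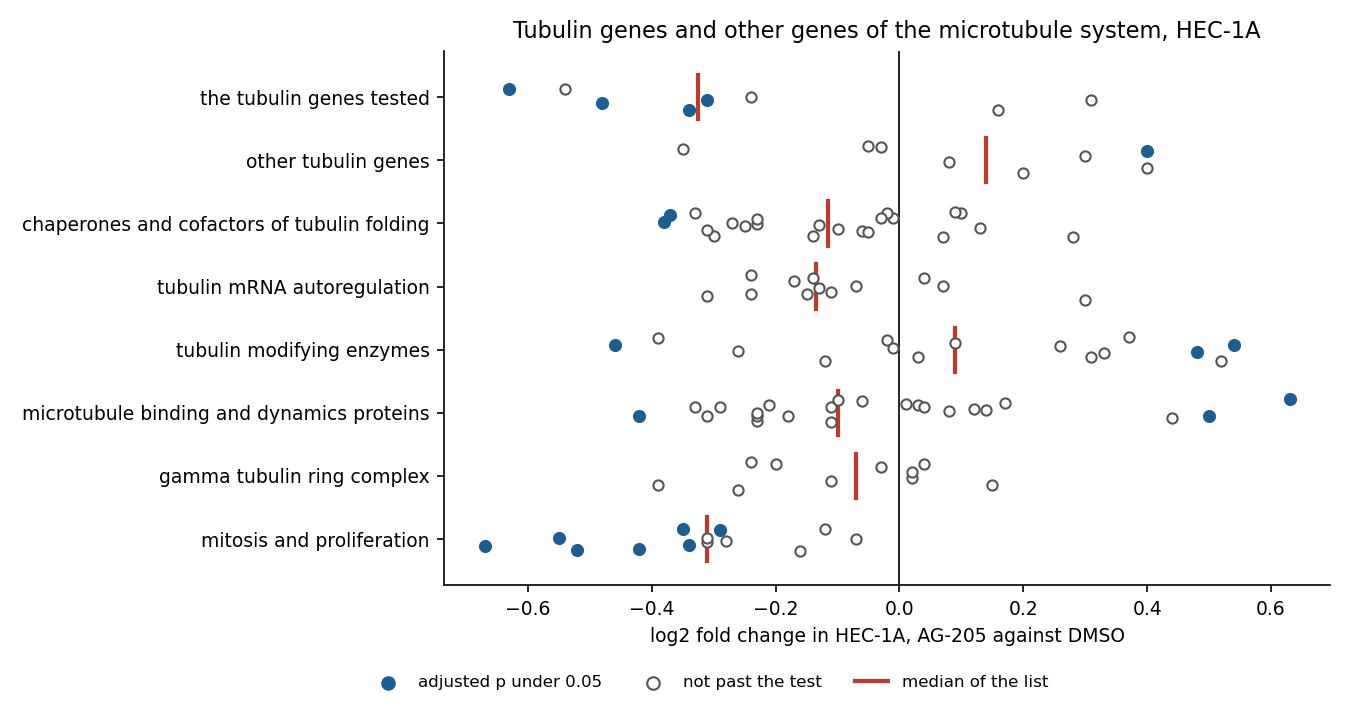
Log2 fold change, AG-205 against DMSO, in HEC-1A for the tubulin genes tested and for the genes of 7 related lists. Each point is 1 gene, filled where the adjusted p is under 0.05 (edgeR), and the vertical bars are list medians. The tubulin genes (median -0.33) and the mitosis genes (median -0.31) lie furthest to the left.

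Genes that varied most like the tubulin genes were sought over the 12 libraries. For each gene, log2 levels centred within each line were correlated with the mean of the 8 tubulin genes that passed the count filter in every comparison, over 16122 other genes. The 5 with the highest Pearson's r were ACOT7 (0.97), NUP88 (0.95), CTPS1 (0.94), BMS1 (0.94) and NDUFS1 (0.93). The points include the treatment groups, libraries of unequal depth and libraries that stood apart from their groups, such as T-HESC AG-205 replicate 1. These values are therefore a description only. In HEC-1A, NUP88, a nuclear pore protein, was lower at -0.38 on the log2 scale (SE 0.1, adjusted p = 0.0278, edgeR), and BMS1, a ribosome assembly factor, at -0.32 (SE 0.0911, adjusted p = 0.0414, edgeR). ACOT7, CTPS1 and NDUFS1 were not called in HEC-1A, and none of the 5 was called in T-HESC.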

How the data were processed

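Per the paper and the submitters' processing notes, the authors sequenced polyA-selected RNA from 3 independent culture experiments, used Trimmomatic 0.38 for trimming and HISAT2 2.1.0 for alignment to GRCh38, and counted reads per Ensembl gene with featureCounts (Subread 2.0.0). The deposited values are raw counts per gene. Whether counting used strand, pairs or multimapping reads is not given in the sources used here, so reads of antisense genes and of near-identical copies may be misassigned. Antisense genes overlap 44% of the exon length of TUBA1B (TUBA1B-AS1), 21.2% of TUBB6 (AFG3L2) and 17% of TUBA4A (STK16). Noncoding antisense genes overlap 15% of TUBA1C and 13.2% of TUBB, and FAM166A overlaps 6.09% of TUBB4B.

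From these counts, edgeR 4.0.16 (R 4.3.3) was fitted to each comparison with TMM scaling, its default filter on low counts and the quasi-likelihood test, and p-values were adjusted by Benjamini and Hochberg's method over all genes tested. SE is the log2 fold change divided by the square root of F. Levels are CPM with TMM factors over all 12 libraries, and lengths are the merged exons of GENCODE 44. Gene counts of 7168542 to 15178276 per library set the precision, and no interval beyond replicate error is given. The scripts were tested on simulated data. The members and lists were chosen with earlier results of these data known. The text names all 10 tubulin genes, TTC5, SCAPER, CNOT11, the genes of each list past both thresholds with AG-205, the 2 genes of each list with the smallest p in HEC-1A, and the 5 most alike genes. Alternatives were DESeq2 1.42.0, RLE and upper-quartile scaling, other filters, 1 fit of all 12 libraries, a replicate block, quality weights (limma 3.58.1), the fold limit and leaving out each library. Replicate numbers are not stated to mark shared cultures, and same-numbered libraries did not deviate together (correlations of -0.08, 0.23 and 0.00 in HEC-1A, 0.22, -0.53 and -0.04 in T-HESC), so the main fits have no block. Differently numbered T-HESC libraries also correlated, in both directions (AG-205 replicate 2 at 0.69 with DMSO replicate 3 and -0.54 with DMSO replicate 1). The numbers may thus not mark the cultures, and a pairing under other numbers was not tested.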

Additional observations from a re-analysis of the deposited data

How the results depend on the processing

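With 3 libraries a group, 11 genes were called in T-HESC, and the median SE over all genes was 0.325 there against 0.133 in HEC-1A. The SE of TUBB and of TUBB4B was 0.237 in T-HESC, against 0.103 and 0.091 in HEC-1A. Whether tubulin differences of the size seen in HEC-1A could be detected in T-HESC was not tested. Of 112 values for the HEC-1A tubulin genes under other settings, none changed direction, 21 lost the call and 4 gained it. The number of tubulin genes called in HEC-1A (4) was 2 with upper-quartile scaling, 2 with a replicate block, 0 with all 12 libraries in 1 fit and 0 with the fold limit, and 1 to 6 when a library was left out. The numbers of all genes called there (1643) were 393 with the fold limit, 154 in the fit of all 12, 3718 with quality weights and 678 to 4014 with a library left out. For T-HESC (11) they were 141 with DESeq2, 181 with no filter, 206 in the fit of all 12, 450 with quality weights and 0 to 72 with a library left out, and for the difference between the lines (28) they were 111 with DESeq2, 141 with no filter, 529 with quality weights, 0 with the replicate block and 4 to 86 with a library left out. No setting called a tubulin gene in the last 2 comparisons.

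Between the lines under DMSO the fold limit left 6593 of 10664 genes and 4 of 8 tubulin genes, 3 higher. With upper-quartile scaling the median log2 fold change of all genes there was -0.17, against -0.02 in the main fit. TUBA1B (0.19) and TUBB4B (0.14) were then not called. Uncalled values changed direction as follows. In T-HESC, with quality weights TUBA4A was at 0.28 and TUBB2B at -0.06. With a library left out, TUBA1A ranged from -0.01 to 0.30, TUBA4A from -0.28 to 0.22, TUBB2A from -0.14 to 0.05, TUBB2B from -0.25 to 1.11 and TUBB3 from -0.27 to 0.72. In the difference between the lines, TUBA1C was at 0.01 with no filter and 0.09 with quality weights, and TUBB was at -0.06 and TUBB4B at -0.04 with upper-quartile scaling. With a library left out, TUBA1B ranged there from -0.10 to 0.52, TUBA1C from -0.15 to 0.11, TUBB from -0.05 to 0.12 and TUBB4B from -0.05 to 0.15. The cause of these changes was not tested.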
